A study of Mus musculus with 9 samples.

Results

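The lens RNA-binding and RNA granule genes described here were *Tdrd7*, *Caprin1*, *Caprin2*, *Celf1*, *Rbm24*, *Stau1*, *Stau2*, *Ybx1* and *Elavl1*. They were taken by gene symbol, each symbol matched 1 counted gene, and together they were 9 of the 55416 genes counted. RNA was sequenced from whole lenses of mouse embryos at E16.5, with 1 library made from the pair of lenses of a single embryo. The 4 *Atf4* null and 5 wildtype embryos came from matings between heterozygotes. All carried a mixed C57Bl/6 and 129 background, and the null embryos were homozygous for Atf4tm1Tow, a germline allele in which exons of *Atf4* are replaced by a neomycin cassette, so the allele was present in every tissue of the embryo and not in the lens alone. The colony was not genotyped for the *Bfsp2* deletion that 129 strains carry. ATF4 is the transcription factor of the integrated stress response, and the comparison asks how its loss changed RNA levels in the embryonic lens.

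The lens grows by turning epithelial cells into fiber cells, which fill with crystallin protein and then destroy their nuclei. A fiber cell that has lost its nucleus can no longer transcribe, so the stability, packaging and translation of the mRNAs it already holds set what it can make. RNA-binding proteins do this work, singly or gathered in RNA granules, which are bodies of RNA and protein without a membrane. Loss of TDRD7, CELF1, RBM24 or CAPRIN2 is known to disturb the lens or the eye.

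Each library held between 7440807 and 8906996 counts assigned to genes. Levels are given as CPM, which are counts scaled to a common library size after TMM scaling between libraries, and libraries are named by the sample number in their title. *Atf4* was at 155, 141, 142, 129 and 119 CPM in wildtype 1 to 5 and at 3.29, 8.64, 10.6 and 0.582 CPM in null 1 to 4. Lens identity was clear from the fiber markers, of which 11 of 12 were detected (*Lim2* was listed at 0 counts in every library). Their summed share of all counts was 10.2% to 10.7% in wildtype 1 to 4, 6.58% in wildtype 5, and 5.32%, 7.51%, 7.21% and 9.95% in null 1 to 4. Wildtype 5 stood apart in its skeletal muscle markers (1.01% of counts against 0.00743% to 0.0178% in the other 8 libraries) and its mesenchyme markers (1.49% of counts). The mesenchyme share was also higher in every null library, at 0.0192% to 0.0573%, than in wildtype 1 to 4, at 0.00378% to 0.00867%, and the part of these markers in the results was not tested. Null 1 had the highest share of neural retina and neuron markers, 0.0821% against 0.0127% to 0.0449% in the others. Of the marker genes tested, 4 of 11 for fibers fell, 6 of 10 for epithelium fell and 1 rose, 3 of 10 for retina and neurons rose and 1 of 6 for blood fell. With edgeR no marker passed for muscle (8 tested, 8 at an unadjusted p below 0.05), mesenchyme (8 tested, 1 below), macrophages (6 tested, 0 below) or vascular endothelium (6 tested, 4 below), and DESeq2 called 2 of these, both in endothelium. These are bulk libraries, so fewer cells of a type and less RNA per cell cannot be told apart.

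Among the 9 genes, 2 fell in the *Atf4* null lens, *Caprin2* and *Ybx1*, and the other 7 did not pass the test. A gene was called at an adjusted p below 0.05 in edgeR's quasi-likelihood test, which called 5.90% of the 14903 genes tested. The 2 calls, 22.2% of the 9, were both among the genes lower in the null, the direction that held 3.67% of all genes tested. None of the 9 was called higher, against 2.23% of all genes; none of those with a positive value reached an unadjusted p below 0.05. At an unadjusted p below 0.05 stood 2 of the 9, or 22.2%, close to the 19.6% of all genes tested. DESeq2 called the same 2 genes lower and none higher, where it called 9.37% of all genes. The log2 fold changes ran from -0.98 to 0.29 with a median of -0.21, beside a median of 0.001 over all genes tested, and 6 of the 9 values were negative. In 1 of the 9, *Ybx1*, the CPM of the 4 null libraries did not overlap those of the 5 wildtype libraries, a share close to the 10.2% of all genes tested.

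**Figure D1:**
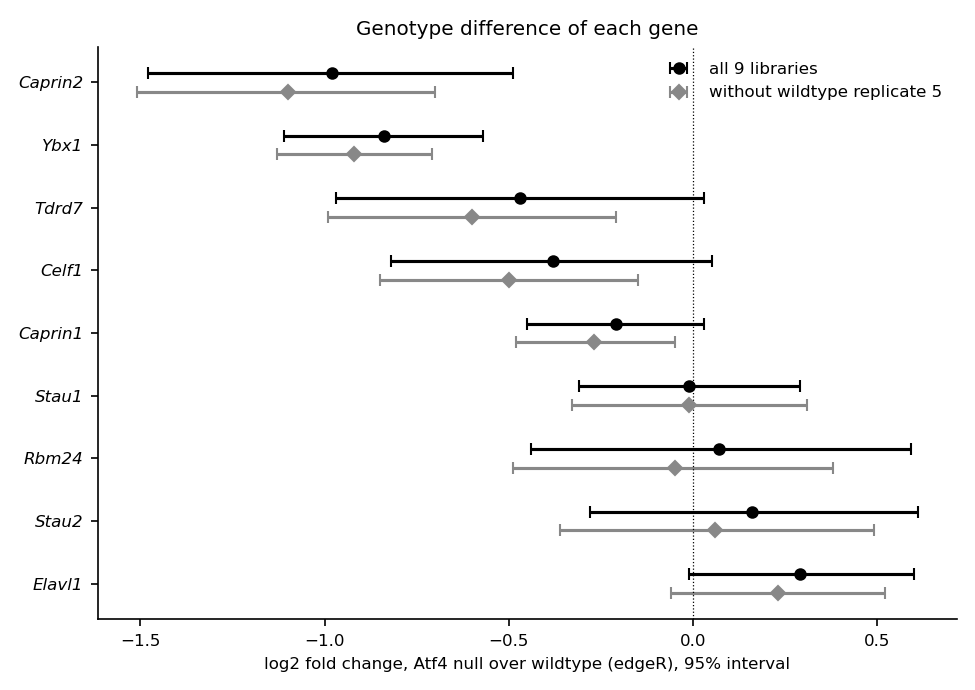
Log2 fold change of each gene, *Atf4* null over wildtype, with its 95% interval from edgeR (bars), for all 9 libraries (circles) and without wildtype 5 (diamonds). With all libraries, the intervals of *Caprin2* (-1.48 to -0.49) and *Ybx1* (-1.11 to -0.57) lie below 0, and those of the other 7 genes include 0. Without wildtype 5, the intervals of *Tdrd7* (-0.99 to -0.21), *Celf1* (-0.85 to -0.15) and *Caprin1* (-0.48 to -0.05) also lie below 0, though their edgeR adjusted p stayed above 0.05.

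In the wildtype lens the 9 mRNAs covered a wide range of levels. Per length of exon, in FPKM, the order from the top was *Ybx1* (309 ± 42.6, SD, n = 5), *Tdrd7* (163 ± 39.5), *Caprin2* (97.2 ± 20.6), *Celf1* (76.6 ± 16.3), *Caprin1* (51.5 ± 5.56), *Rbm24* (51.1 ± 11.8), *Elavl1* (8.60 ± 1.06), *Stau1* (6.82 ± 0.463) and *Stau2* (1.74 ± 0.447). The wildtype ranges did not overlap between *Ybx1* and *Tdrd7*, between *Rbm24* and *Elavl1*, or between *Stau1* and *Stau2*, whereas the other 5 neighbouring pairs in this order overlapped. The upper 6 genes were thus separated from *Elavl1* and both Staufen genes in every wildtype library. When the length of the canonical transcript replaced the summed exon length, a scale chosen after seeing the data, *Caprin2* (380 ± 80.5 FPKM) stood above *Tdrd7* (320 ± 77.5 FPKM), and *Rbm24* (82.7 ± 19.2) above *Caprin1* (81.7 ± 8.82). By exon length, *Caprin2* was above *Celf1* in 5 of 5 wildtype libraries and in 0 of 4 null libraries, but this change of order was not present by canonical length, where *Caprin2* was above *Celf1* in the null as well (192 ± 68.9 against 63.9 ± 18.7 FPKM, n = 4).

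Both genes that fell encode mRNA-binding proteins. YBX1 is a cold shock domain protein that coats cytoplasmic mRNA. CAPRIN2, which binds RNA through RGG motifs, is abundant in lens fibers and also modulates Wnt receptor signalling. Their promoter sequences are shown because the RNA of both fell in a mutant of a transcription factor. That of *Elavl1*, which did not pass the test, is shown as the one gene of the 9 that held an exact cyclic AMP response element. Each run is the 250 bases before the canonical start in GENCODE vM39, read 5′ to 3′ on the strand of the gene from the GRCm39 genome, and capitals mark matches to the motifs listed after the sequences. *Caprin2* lies on the minus strand at chr6:148743985-148797767 with its window at chr6:148797768-148798017, *Ybx1* on the minus strand at chr4:119134524-119151950 with its window at chr4:119151951-119152200, and *Elavl1* on the minus strand at chr8:4332576-4375489 with its window at chr8:4375490-4375739.
Caprin2: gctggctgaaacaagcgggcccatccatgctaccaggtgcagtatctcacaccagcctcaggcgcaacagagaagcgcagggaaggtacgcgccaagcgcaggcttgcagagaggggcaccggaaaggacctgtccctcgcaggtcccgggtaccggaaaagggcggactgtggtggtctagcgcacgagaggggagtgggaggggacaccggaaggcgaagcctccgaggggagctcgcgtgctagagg
Ybx1: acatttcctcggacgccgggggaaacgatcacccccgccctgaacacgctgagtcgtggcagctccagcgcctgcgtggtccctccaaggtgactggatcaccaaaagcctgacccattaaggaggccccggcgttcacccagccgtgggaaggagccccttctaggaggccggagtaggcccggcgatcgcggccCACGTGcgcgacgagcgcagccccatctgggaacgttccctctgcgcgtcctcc
Elavl1: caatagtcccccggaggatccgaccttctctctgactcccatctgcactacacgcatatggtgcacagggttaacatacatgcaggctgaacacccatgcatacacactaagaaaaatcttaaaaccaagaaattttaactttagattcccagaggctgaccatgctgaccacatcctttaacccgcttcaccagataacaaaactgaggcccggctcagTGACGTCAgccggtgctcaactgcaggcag

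The motifs, searched on both strands, were the ATF4 composite element TGATGCAA, the relaxed form TGATGNAA (which includes the first), the cyclic AMP response element TGACGTCA, CCAAT and the E-box CACGTG. Neither TGATGCAA nor TGATGNAA was found in the 250 bases before any of the 9 genes, and over 14862 tested genes these were present in 0.478% and 2.23% of such windows. Among the 546 of these genes called lower in the null, the shares were 1.1% and 2.38%, so most genes that fell had no match either. TGACGTCA was found only in *Elavl1*, starting 30 bases before the start, against 1.88% of all windows. CACGTG was found only in *Ybx1*, 54 bases before the start, against 7.27%, and CCAAT in none of the 9, against 35.3%. Within 1000 bases, TGATGNAA (11.6% of all windows) was found only in *Celf1*, on the opposite strand 280 bases before its start, and TGATGCAA (2.24%) in none. These are matches of letters in 1 window for each gene, and the canonical start of *Tdrd7*, *Caprin1* and *Stau2* lies inside the annotated gene. The other 6 genes lie at chr4:45965328-46035307 (*Tdrd7*, plus strand), chr2:103592979-103628010 (*Caprin1*, minus), chr2:90770584-90849842 (*Celf1*, plus), chr13:46571589-46584575 (*Rbm24*, plus), chr2:166784955-166838295 (*Stau1*, minus) and chr1:16293941-16590357 (*Stau2*, minus), and all 9 are annotated as protein-coding.

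*Ybx1* was at 1340, 1320, 1340, 1310 and 944 CPM in wildtype 1 to 5 and at 739, 705, 696 and 659 CPM in null 1 to 4. Wildtype 5 was the lowest of its group but lay above every null library, and the null libraries differed little from each other. The mean fell from 1250 ± 173 CPM (SD, n = 5) to 700 ± 32.7 CPM (n = 4), a log2 fold change of -0.84 (SE 0.13, 95% interval -1.11 to -0.57, 1.79-fold lower, edgeR adjusted p = 0.00157). An exact two-sided permutation test over the libraries gave p = 0.016, where the smallest p possible was 0.0079. Without wildtype 5 the log2 fold change was -0.92 (edgeR adjusted p = 1.66e-05). The processed pseudogene *Ybx1-ps2* held 16 counts in all 9 libraries together.

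*Caprin2* was at 1660, 1510, 1520, 1490 and 894 CPM in wildtype 1 to 5 and at 457, 665, 675 and 1070 CPM in null 1 to 4. Wildtype 1 to 4 lay above every null library, but wildtype 5 was below null 4, so the groups overlapped. The mean fell from 1420 ± 301 CPM (SD, n = 5) to 718 ± 257 CPM (n = 4), a log2 fold change of -0.98 (SE 0.23, 95% interval -1.48 to -0.49, 1.97-fold lower, edgeR adjusted p = 0.0223). The exact permutation test gave p = 0.024. Without wildtype 5 the log2 fold change was -1.10 (edgeR adjusted p = 0.00149), and without both wildtype 5 and null 1 it was -0.93 (edgeR adjusted p = 0.000249). The call was lost when null 2, null 3, or any of wildtype 1 to 4 was left out, with edgeR adjusted p from 0.0545 to 0.0844. The log2 fold change in these cases stayed between -0.96 and -0.92.

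**Figure D2:**
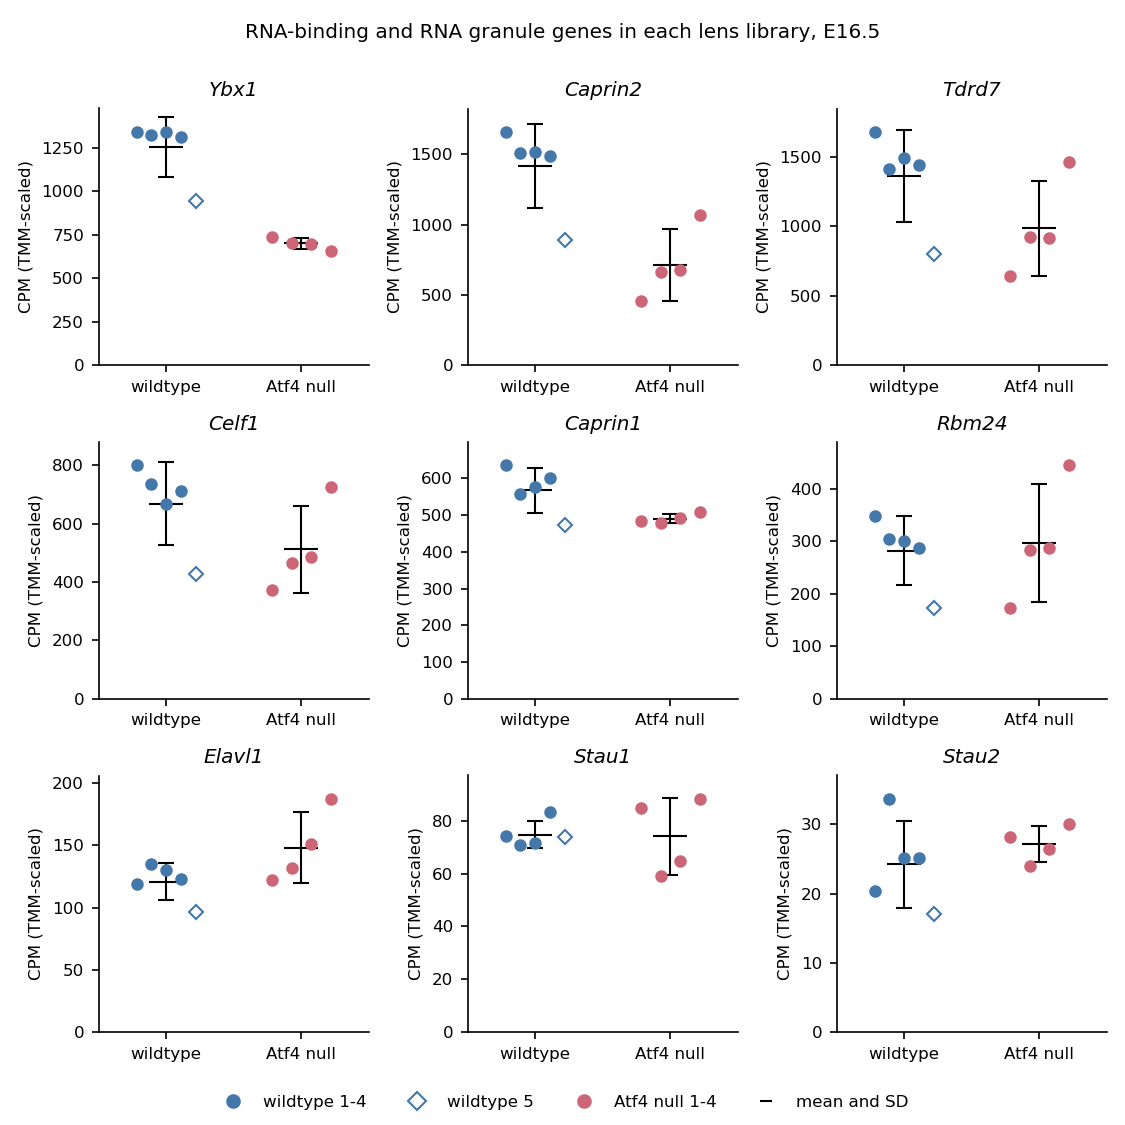
TMM-scaled CPM of the 9 genes in each wildtype (blue, wildtype 5 as an open diamond) and *Atf4* null (red) library, with the mean and SD of each group in black; each axis starts at 0. *Ybx1* separates all 4 null libraries (659 to 739 CPM) from all 5 wildtype libraries (944 to 1340 CPM), whereas *Caprin2* overlaps at wildtype 5 (894 CPM) and null 4 (1070 CPM).

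*Caprin1*, the paralog of *Caprin2*, encodes a partner of the G3BP proteins in stress granules and is used in cells of many kinds. It was at 635, 556, 575, 601 and 472 CPM in wildtype 1 to 5 and at 484, 479, 491 and 507 CPM in null 1 to 4. The null libraries lay close together, below wildtype 1 to 4 and above wildtype 5. The log2 fold change was -0.21 (95% interval -0.45 to 0.03, edgeR adjusted p = 0.325), and -0.27 without wildtype 5 (adjusted p = 0.125).

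The ratio of *Caprin2* to *Caprin1* counts compares the paralogs inside a library and does not depend on scaling between libraries. It was 2.62, 2.72, 2.65, 2.48 and 1.89 in wildtype 1 to 5 and 0.946, 1.39, 1.38 and 2.12 in null 1 to 4. Null 4 again lay among the wildtype values, above wildtype 5. In the null the ratio had the order of the fiber marker share (5.32%, 7.51%, 7.21% and 9.95% of counts in null 1 to 4). Wildtype 5 was the lowest of its group in both, while the orders differed among wildtype 1 to 4. The part of fiber content in the ratio was not tested. The log2 ratio was lower in the null by 0.81 (wildtype mean 1.29, null mean 0.48; exact two-sided permutation test p = 0.024, adjusted over 2 ratios p = 0.048). With 1 library left out, the adjusted exact p passed only without null 4 (0.036) and missed, at 0.071, without null 1, null 2 or null 3. Without a wildtype library the smallest exact p possible was 0.029, or 0.057 after adjustment with the other ratio as measured, so these 5 cases could not pass and do not bear on stability.

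**Figure D3:**
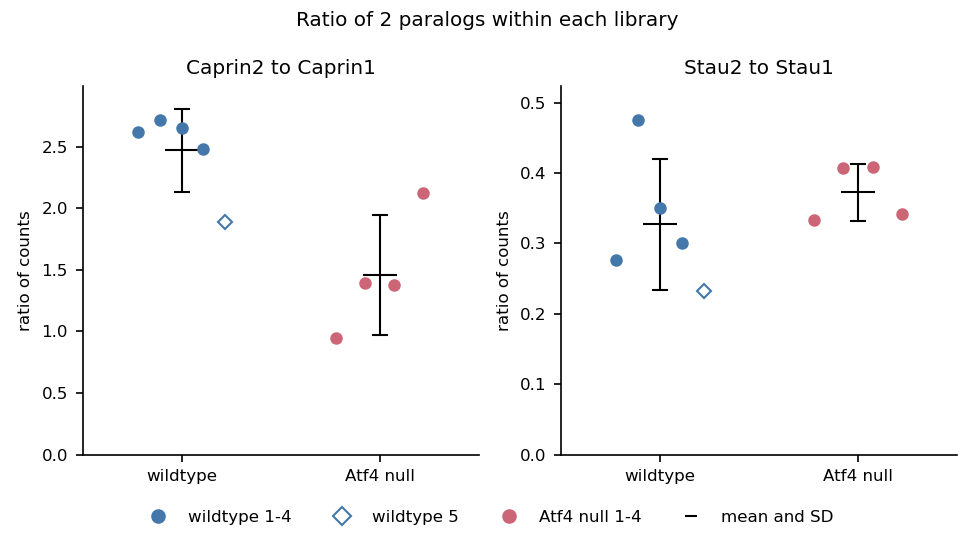
Ratio of counts of *Caprin2* to *Caprin1* (left) and *Stau2* to *Stau1* (right) in each library, with group means and SD in black. *Caprin2* to *Caprin1* is between 0.946 and 2.12 in the null and between 1.89 and 2.72 in wildtype libraries, and *Stau2* to *Stau1* overlaps over most of its range.

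*Tdrd7* encodes a Tudor domain scaffold of lens RNA granules. It was at 1680, 1410, 1490, 1440 and 805 CPM in wildtype 1 to 5 and at 646, 925, 917 and 1460 CPM in null 1 to 4. Null 4 lay among wildtype 1 to 4, while wildtype 5 lay among the other null libraries. The group means were 1360 ± 330 CPM (wildtype, SD, n = 5) and 987 ± 340 CPM (null, n = 4), a log2 fold change of -0.47 (95% interval -0.97 to 0.03, edgeR adjusted p = 0.294). Without wildtype 5 the value was -0.60 (interval -0.99 to -0.21, edgeR adjusted p = 0.0579), and without wildtype 5 and null 1 it was -0.44 (interval -0.73 to -0.14, adjusted p = 0.061). Of the libraries left out singly, the null libraries at either end moved it most, to -0.30 (edgeR adjusted p = 0.516) without null 1 and to -0.72 (adjusted p = 0.0695) without null 4. With the replicate number as a block it was -0.67 (edgeR adjusted p = 0.0635). *Tdrd7* therefore did not pass, and its interval includes both no difference and a decrease as large as that of *Ybx1*.

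The 3 genes for proteins that recognise short sequence elements did not pass either. CELF1 binds GU-rich elements and controls splicing and decay, RBM24 controls splicing and stability, and ELAVL1 (HuR) stabilises AU-rich mRNAs. *Celf1* was at 799, 734, 667, 711 and 428 CPM in wildtype 1 to 5 and at 373, 465, 485 and 724 CPM in null 1 to 4. As with *Tdrd7*, null 4 lay among wildtype 1 to 4 and wildtype 5 among the null libraries. The log2 fold change of *Celf1* was -0.38 (95% interval -0.82 to 0.05, edgeR adjusted p = 0.327), and -0.50 (adjusted p = 0.0762) without wildtype 5. It was -0.25 (edgeR adjusted p = 0.56) without null 1 and -0.60 (adjusted p = 0.0802) without null 4.

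*Rbm24* was at 347, 304, 300, 287 and 172 CPM in wildtype 1 to 5 and at 172, 284, 286 and 444 CPM in null 1 to 4. The lowest library of each group was at the same rounded level, null 4 was the highest of all 9, and the other libraries lay together. The log2 fold change was 0.07 (95% interval -0.44 to 0.59, edgeR adjusted p = 0.916), and its sign turned without wildtype 5 (-0.05, adjusted p = 0.924) and without null 4 (-0.19, adjusted p = 0.716), while without null 1 it was 0.27 (adjusted p = 0.548).

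*Elavl1* was at 119, 135, 130, 123 and 96.6 CPM in wildtype 1 to 5 and at 122, 132, 151 and 187 CPM in null 1 to 4. Null 3 and null 4 lay above every wildtype library and null 1 and null 2 lay within the wildtype range. The log2 fold change was 0.29 (95% interval -0.01 to 0.60, edgeR adjusted p = 0.274), and 0.16 (adjusted p = 0.568) without null 4, its highest library. With scaling by library size alone it was 0.41 and passed (edgeR adjusted p = 0.0349), but that scaling moved the median of all genes to 0.125. *Ccl25*, on the opposite strand, shares 604 exon bases with *Elavl1* and was at 19.6 ± 3.44 CPM across wildtype (SD, n = 5) and 23.0 ± 5.29 CPM across null lenses (n = 4).

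The Staufen proteins bind double-stranded RNA and carry mRNA for transport, local translation or decay. *Stau1* was at 74.1, 70.7, 71.6, 83.4 and 73.7 CPM in wildtype 1 to 5 and at 84.8, 58.9, 64.7 and 88.2 CPM in null 1 to 4. The null libraries lay on both sides of the wildtype group, and the log2 fold change was -0.01 (95% interval -0.31 to 0.29, edgeR adjusted p = 0.979). *Cse1l*, on the opposite strand, shares 2902 exon bases with *Stau1* and had a log2 fold change of 0.09 (edgeR adjusted p = 0.799). The strand setting of the counting is not given in the sources used here, so reads of *Stau1* and *Cse1l*, or of *Elavl1* and *Ccl25*, may not have been told apart where their exons overlap.

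*Stau2* had the lowest level of the 9 genes, at 20.4, 33.7, 25.1, 25.1 and 17.1 CPM in wildtype 1 to 5 and at 28.2, 24, 26.4 and 30.1 CPM in null 1 to 4. All null libraries lay within the wildtype range. The log2 fold change was 0.16 (95% interval -0.28 to 0.61, edgeR adjusted p = 0.743), and ran from 0.06 without wildtype 5 to 0.31 without wildtype 2. The ratio of *Stau2* to *Stau1* counts was 0.276, 0.476, 0.35, 0.30 and 0.233 in wildtype 1 to 5 and 0.333, 0.407, 0.408 and 0.342 in null 1 to 4. The null ratios lay within the wildtype range, and the log2 ratio differed by 0.22 (exact permutation p = 0.33, adjusted over 2 ratios p = 0.33). It differed by 0.11 without wildtype 5 (exact p = 0.60) and by 0.37 without wildtype 2 (exact p = 0.086).

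The 9 genes fell into different patterns across single libraries. For *Tdrd7*, *Caprin2*, *Celf1*, *Rbm24* and *Elavl1*, null 1 was the lowest and null 4 the highest null library and wildtype 5 the lowest wildtype library. All 11 tested fiber markers had this order, as had 15.3% of the 7068 genes with a mean of at least 20 CPM. In the null, the highest library was 2.58 times the lowest for *Rbm24*, 2.35 for *Caprin2*, 2.26 for *Tdrd7*, 1.94 for *Celf1* and 1.52 for *Elavl1*, beside a median of 1.47 over those genes. *Caprin1* and *Ybx1* varied least among the null libraries, with ratios of 1.06 and 1.12, smaller than in all but 0.523% and 3.68% of genes, while *Stau1* and *Stau2* were at 1.5 and 1.26. *Ybx1* had the opposite extremes from the fiber markers, with null 1 the highest and null 4 the lowest. The part of fiber content in these differences was not tested.

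Set against the mean of wildtype 1 to 4, the median fiber marker was at 0.385, 0.589, 0.562 and 0.920 in null 1 to 4 and at 0.569 in wildtype 5. *Caprin2* was at 0.295, 0.430, 0.436 and 0.693 in null 1 to 4, below the median fiber marker in each, and at 0.577 in wildtype 5. *Ybx1* was at 0.556, 0.531, 0.524 and 0.496 in null 1 to 4 and at 0.71 in wildtype 5, so it lay above the median fiber marker in null 1 and wildtype 5 and below it in null 2, null 3 and null 4. *Tdrd7* was at 0.430, 0.615, 0.610 and 0.970 in null 1 to 4 and at 0.535 in wildtype 5, a little above the median fiber marker in each null library and a little below it in wildtype 5. Wildtype 5 was the lowest wildtype library for 8 of the 9 genes, all but *Stau1*, and for 40.2% of the 7068 genes.

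**Figure D4:**
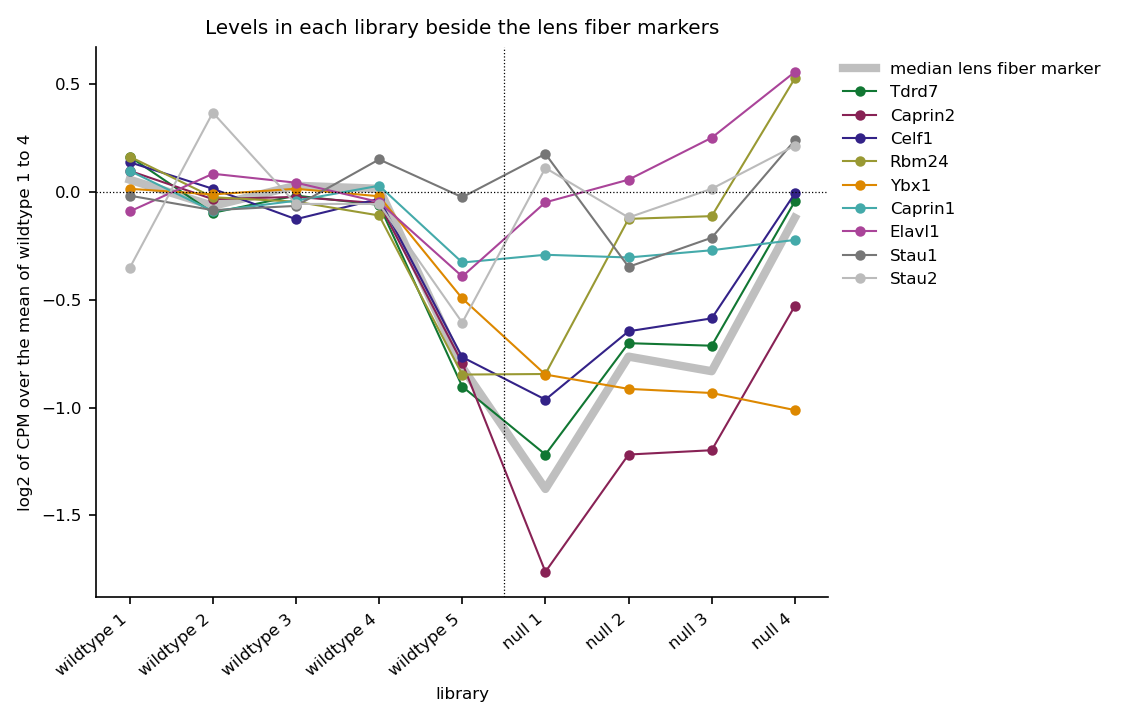
Log2 of CPM over the mean of wildtype 1 to 4 for each gene in each library (coloured points), with the median of 11 lens fiber markers as a broad grey line; lines join points of the same gene only to guide the eye. *Tdrd7*, *Celf1* and *Caprin2* dip with the fiber markers in null 1 and wildtype 5, and *Ybx1* stays low in all 4 null libraries.

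The genes whose pattern across the 9 libraries was most like that of a gene that fell were named by the smallest mean absolute difference in log2 CPM centred on the wildtype mean. For *Caprin2* these were *Crygc*, *Crygd* and *Cryba2*, crystallins of fiber cells, with *Mxd1*, a MAX-binding repressor, and *Plaat3*, a phospholipase that acts in lens organelle breakdown, at 0.0487 to 0.0951. Since the choice used the same libraries, a difference like that of *Caprin2* or *Ybx1* was fixed by it, and the means are given as a description with no test. *Crygc* was at 2260 CPM in wildtype and 1180 CPM in null lenses, and *Plaat3* at 333 and 153 CPM. For *Ybx1* they were *Aars1*, the alanyl-tRNA synthetase, *Tubb4b*, a beta-tubulin, *Uchl1*, a ubiquitin hydrolase, *Pcp4l1* and *Plxdc2*, at 0.0701 to 0.0819. *Aars1* was at 137 CPM in wildtype and 70.2 CPM in null lenses. The lists nearest to *Caprin2* and *Ybx1* shared no gene, which follows from the unlike patterns used to choose them and is no separate result.

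With edgeR's quasi-likelihood test the wider RNA granule machinery gave no called gene, where 5.90% of all genes tested were called. At that share, lists this short would hold few calls. The 6 companion lists were written from general knowledge, with earlier results of these data known. Those for close relatives (10 tested), stress granules (18), P-bodies and mRNA decay (19), transport granules and Staufen partners (19), and Tudor domain and germ granule proteins (6 of 13) held no called gene with edgeR. At an unadjusted p below 0.05 they held 4, 1, 3, 1 and 0 genes, and DESeq2 called 0, 0, 2, 1 and 0. Over all genes tested these shares were 19.6% and 9.37%, so apart from the 4 of 10 close relatives no list stood above the background at an unadjusted p, and only P-bodies (2 of 19) stood near it with DESeq2. Their median log2 fold changes were 0.54, -0.05, -0.05, 0.08 and 0.01.

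Among close relatives, the 4 genes below 0.05 before adjustment were *Celf3*, *Celf5*, *Elavl2* and *Ybx3*, and each had a positive value. *Ybx3*, a paralog of *Ybx1* and the most abundant relative, was at 216, 230, 218, 223 and 183 CPM in wildtype 1 to 5 and at 190, 275, 277 and 339 CPM in null 1 to 4. Null 1 lay among the wildtype libraries and the other 3 null libraries above them all, with a log2 fold change of 0.33 (edgeR adjusted p = 0.232) where *Ybx1* had -0.84. Without null 1 the value for *Ybx3* was 0.48 and passed (edgeR adjusted p = 0.0349). *Celf3*, which is used in neurons, was at 11.9, 12.7, 9.51, 7.97 and 16.9 CPM in wildtype 1 to 5 and at 47.6, 25.4, 14.3 and 8.59 CPM in null 1 to 4 (log2 fold change 1.02, edgeR adjusted p = 0.177). *Celf5* and *Elavl2*, which neurons also use, were at 14.5 and 9.87 CPM in null 1, at 2.48 to 5.26 and 3.72 to 7.90 CPM in the other null libraries, and at 1.65 to 4.32 and 1.16 to 5.14 CPM in wildtype libraries. Null 1 was the highest for *Celf3*, *Celf5* and *Elavl2* as for the summed neural retina and neuron markers, whose shares were 0.0821%, 0.0371%, 0.0449% and 0.0173% of counts in null 1 to 4 and 0.0127% to 0.0223% in wildtype libraries, and their part in these values was not tested. The relatives *Elavl3* and *Elavl4* are themselves among those markers.

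In the stress granule list, which includes *Caprin1*, the most abundant gene was *Pabpc1*, the cytoplasmic poly(A)-binding protein, at 1550 ± 245 CPM across wildtype (SD, n = 5) and 1590 ± 353 CPM across null lenses (n = 4) (log2 fold change 0.04, edgeR adjusted p = 0.927). *G3bp2*, a binding partner of CAPRIN1 chosen here after its values were seen, was at 204, 206, 204, 198 and 138 CPM in wildtype 1 to 5 and at 152, 142, 153 and 140 CPM in null 1 to 4. As for *Ybx1* and *Caprin1*, the null libraries lay close together below wildtype 1 to 4. Wildtype 5 was lower still, as for *Caprin1* but not for *Ybx1*. The log2 fold change of *G3bp2* was -0.37 (edgeR adjusted p = 0.116), and without wildtype 5 it was -0.47 and passed (edgeR adjusted p = 0.00908).

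In the P-body list the most abundant gene was *Tnrc6b*, a scaffold that links Argonaute to mRNA decay, at 944 ± 182 CPM across wildtype (SD, n = 5) and 595 ± 177 CPM across null lenses (n = 4). It was at 1110, 967, 1040, 976 and 633 CPM in wildtype 1 to 5 and at 418, 559, 561 and 840 CPM in null 1 to 4. Null 1 was thus the lowest and null 4 the highest null library, and wildtype 5 the lowest wildtype library, as for the fiber markers. The part of fiber content was not tested. The log2 fold change of *Tnrc6b* was -0.67 (edgeR adjusted p = 0.0711), and DESeq2 called it and *Tnrc6a*, with adjusted p of 0.00841 and 0.019. With edgeR, *Tnrc6b* passed without null 4 (-0.88, adjusted p = 0.0123) or without wildtype 5 (-0.77, adjusted p = 0.00813), and *Tnrc6a* without wildtype 5 (-0.37, adjusted p = 0.0497). In the transport list the most abundant gene, *Hnrnpu*, was at 871 ± 56.8 CPM in wildtype and 909 ± 52.0 CPM in null lenses (log2 fold change 0.06, edgeR adjusted p = 0.823). *Igf2bp1*, an mRNA-stabilising protein, was the gene nearest to the threshold there, at 185 ± 28.9 CPM in wildtype and 254 ± 19.4 CPM in null lenses (log2 fold change 0.46, edgeR adjusted p = 0.0522, DESeq2 adjusted p = 0.0097). It passed with edgeR when null 4, wildtype 1 or wildtype 5 was left out (adjusted p of 0.0414, 0.040 and 0.0489). In the Tudor list, *Snd1* was the most abundant, at 163 ± 13.2 CPM in wildtype and 151 ± 16 CPM in null lenses (log2 fold change -0.11, edgeR adjusted p = 0.678), while 7 of the 13 genes, among them the germ cell genes *Ddx4* and *Mael*, were too low to test.

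**Figure D5:**
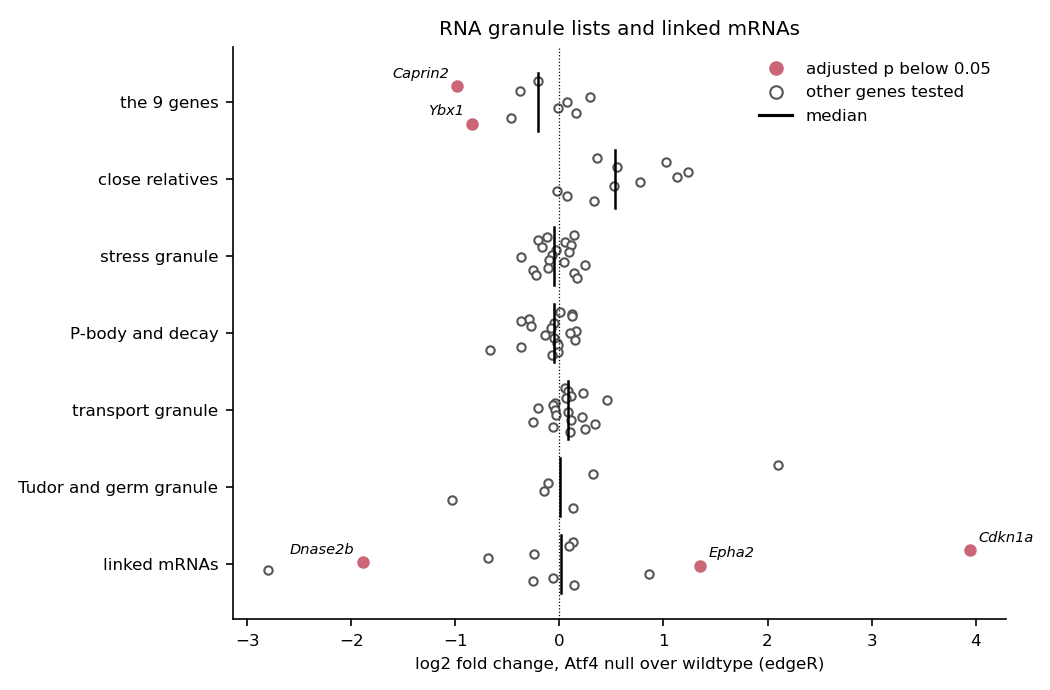
Log2 fold change, *Atf4* null over wildtype, of every tested gene of the 9 genes and of 6 companion lists, with the list medians as bars and genes with an edgeR adjusted p below 0.05 filled and named. The called genes are *Caprin2* and *Ybx1* among the 9, and *Dnase2b*, *Epha2* and *Cdkn1a* among the linked mRNAs.

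The last list held 12 mRNAs that general knowledge links to these proteins as bound targets or as genes altered in their absence. Of these, 3 passed (25.0%, against 5.90% of all genes tested), 2 higher (against 2.23%) and 1 lower (against 3.67%), with a median log2 fold change of 0.01. The list was written with earlier results of these data known, so these shares are a description and no test of the link. It shares 5 genes (*Crybb3*, *Dnase2b*, *Epha2*, *Pax6* and *Sox2*) with the fiber and epithelium markers. *Dnase2b*, the lens nuclease that degrades fiber cell DNA and is linked to CELF1, fell. It was at 107, 90.6, 89.4, 101 and 54.5 CPM in wildtype 1 to 5 and at 12.6, 23.5, 24 and 35.8 CPM in null 1 to 4, with no overlap (log2 fold change -1.89, edgeR adjusted p = 0.00115). *Cdkn1a*, the cell cycle inhibitor p21, rose from 1.54, 1.73, 2.96, 1.52 and 8.78 CPM in wildtype 1 to 5 to 33.7, 69.2, 51.4 and 54.6 CPM in null 1 to 4, also without overlap (log2 fold change 3.95, edgeR adjusted p = 0.000276). *Epha2*, a receptor tyrosine kinase whose loss gives cataract, rose from 95.3 ± 24.4 CPM (SD, n = 5) to 243 ± 72.4 CPM (n = 4) (log2 fold change 1.35, edgeR adjusted p = 0.00259).

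The remaining 9 linked mRNAs did not pass the main quasi-likelihood test, which used all 9 libraries, a filter on low counts and no covariate. *Crybb3*, a beta-crystallin linked to TDRD7 and the most abundant of them, was at 19100 ± 4400 CPM across wildtype (SD, n = 5) and 11800 ± 3900 CPM across null lenses (n = 4) (log2 fold change -0.69, edgeR adjusted p = 0.100). *Hspb1*, a small heat shock protein also linked to TDRD7, was at 5.52, 10.9, 16.7, 3.67 and 22.5 CPM in wildtype 1 to 5 and at 2.49, 3.36, 0.00 and 0.874 CPM in null 1 to 4. Every null library was below every wildtype library (log2 fold change -2.80, edgeR adjusted p = 0.0582), and DESeq2 called *Hspb1* and *Crybb3* with adjusted p of 0.00102 and 0.0155. *Hspb1* also passed with edgeR's exact test (adjusted p = 0.0111), with no filter on low counts (0.0042) and without both wildtype 5 and null 1 (0.0491). With the quasi-likelihood test of edgeR, *Crybb3* passed without null 4 (-0.92, adjusted p = 0.0213) or wildtype 5 (-0.82, adjusted p = 0.00722). By the same test it passed with the replicate block (-0.88, adjusted p = 0.00789) and with no filter on low counts (-0.69, adjusted p = 0.0205). It also passed without both wildtype 5 and null 1 (-0.65, adjusted p = 0.000951), but not under the other edgeR alternatives. *Sox2*, a transcription factor linked to RBM24, had a log2 fold change of 0.14 (edgeR adjusted p = 0.857), and *Myc*, a transcription factor linked to ELAVL1, one of 0.86 (edgeR adjusted p = 0.392), which was 1.58 and passed without wildtype 5 and null 1 (edgeR adjusted p = 0.0333).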

How the data were processed

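Per the submitters' processing notes and the study's methods, the authors trimmed reads with Trim Galore, removed ribosomal reads, aligned the rest to GRCm39 with HISAT2 and counted reads per gene with HTSeq. The labels and the methods name different RNA extraction kits. The deposited values were raw counts, 1 table for each library, and HTSeq summary entries (44.6% to 47.7% of reads) were left out. For the wildtype samples, titles and count tables name different wildtype libraries, so their numbers are uncertain and their genotype is not. Symbols, positions and exon lengths came from GENCODE vM39, of the same build; 0.033% of counts had no symbol.

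After filterByExpr and TMM scaling, the genotypes were compared by edgeR 4.0.16 (quasi-likelihood test, R 4.3.3), with no covariate and Benjamini-Hochberg adjustment over 14903 genes at a threshold of 0.05. CPM use TMM-scaled libraries, and FPKM divide CPM by summed exon length in kilobases. Ratios of counts had 0.5 added to each count in the test. Alternatives were DESeq2 1.42.0, the exact test of edgeR, other scalings and filters, a robust fit, a replicate block and leaving out libraries. The script was tested on simulated data. No library repeated another. P-values measure the spread between single embryos.

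The 9 genes, the 6 companion lists and 8 marker lists were chosen with earlier results of these data known. In each companion list the text names called genes and the most abundant gene (FPKM) that did not pass, and for each of the 9 genes that passed the 5 genes nearest to it in log2 CPM (prior count 2); *Celf3*, *Celf5*, *Elavl2*, *G3bp2*, *Tnrc6a*, *Igf2bp1*, *Ddx4*, *Mael*, *Hspb1*, *Sox2* and *Myc* were chosen after their values were seen.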

Additional observations from a re-analysis of the deposited data

Results flagged for a closer look

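Among 22 sets of 4 or 5 libraries checked for a library far from the rest (the gap to its nearest neighbour over the range of the group), 4 passed the critical value of 0.71 for 5 libraries, where chance alone passes about 1 in 20. Wildtype 5 was far below the other wildtype libraries for *Ybx1* (0.915), for *Caprin2* (0.777) and for the log2 ratio of *Caprin2* to *Caprin1* (0.746). Wildtype 4 was far above them for *Stau1* (0.735), at 83.4 CPM. Wildtype 5 also carried the skeletal muscle and mesenchyme markers given above, and their part in these values was not tested. No null set passed.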

How the results depend on the processing

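*Ybx1* kept its direction and its call under all 19 alternatives (log2 fold change -0.94 to -0.70, highest edgeR adjusted p 0.00851). *Caprin2* kept its direction in all 19 and lost its call in 6, each of which left out a single library, so the number of the 9 genes called ranged from 1 to 2 when a library was left out. The number of all genes called was 880, but 1397 with DESeq2, 1339 without wildtype 5 and null 1 (chosen after seeing the data), and 527 (without null 2) to 1207 (without wildtype 5) with single libraries left out. Scaling by library size alone made 64.3% of calls higher in the null, against 37.8%, and 3 of the 9 genes passed. The sign of *Rbm24* turned with the replicate block (-0.13) and ran from -0.19 to 0.27 with single libraries left out; that of *Stau1* turned with library size alone (0.11) and ran from -0.11 to 0.08. The log2 ratio of *Caprin2* to *Caprin1* ran from -1.01 to -0.62 with single libraries left out, and its adjusted exact p lost the call without null 1, null 2 or null 3; without a wildtype library it could not pass by design.

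Counts called in the companion lists moved as follows, with the count for single libraries left out last. Close relatives went from 0 to 1 with library size alone and without wildtype 5 and null 1 (0 to 1). Stress granule genes went from 0 to 1 with the replicate block and without both libraries (0 to 1). P-body genes went from 0 to 2 with DESeq2, with at least 10 counts in every library and without both libraries, and to 1 with library size alone, no filter and the block (0 to 2). Transport genes went from 0 to 3 with library size alone and to 1 with DESeq2, RLE factors, TMM without crystallins, at least 10 counts and the robust fit (0 to 1). Linked mRNAs went from 3 to 5 with DESeq2 and with no filter, to 4 with edgeR's exact test and the block, and to 6 without both libraries (3 to 4). The causes were not tested.

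Same-numbered libraries did not deviate together (r from -0.131 to 0.00802), but the wildtype numbers are uncertain, so neither this check nor the replicate block, under which 852 genes and 2 of the 9 were called, can settle whether embryos were paired. With 4 against 5 embryos, the intervals of the 7 genes that did not pass include both increases and decreases, down to -0.97 on the log2 scale for *Tdrd7* and up to 0.61 for *Stau2*.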
